A study of Homo sapiens with 4 samples.

Results

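The levels of 10 genes of the interleukin-6 (IL6) signalling route were followed in PC3, a cell line from a human prostate cancer. They are the receptor genes IL6R, IL6ST, LIFR and OSMR, the kinase genes JAK1 and JAK2, the transcription factor gene STAT3, and the inhibitor genes SOCS1, SOCS2 and SOCS3. They were taken by name, so that 10 of the 60544 genes in the count table are described, and all 10 were among the 16802 genes that passed the low-count filter. The study set METTL3 knockdown against control by poly(A) RNA sequencing. METTL3 is the catalytic subunit of the enzyme complex that places N6-methyladenosine (m6A) on messenger RNA. The control arm carries the label shNC and the other arm the label sh812, each with 2 libraries of PC3 cells grown in RPMI-1640 with 10% fetal bovine serum. The labels do not state which arm is the knockdown, and sh812 was read as such because it is the other of the 2 labels. They name 1 targeting label only, and say neither whether the cells were a pool or a clone nor whether the replicates were separate cultures. The p-values therefore measure the spread between these libraries, which may be technical.

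Cytokines of the IL6 family signal through gp130, the protein made by IL6ST. IL6 first binds the receptor chain encoded by IL6R, which has no signalling part of its own and brings IL6 to gp130. Leukemia inhibitory factor (LIF) joins gp130 to LIFR, and oncostatin M joins it to OSMR or LIFR. Kinases of the JAK family sit on the inner part of these receptors and phosphorylate STAT proteins, above all STAT3, which then enter the nucleus. SOCS genes are switched on by STAT proteins, and their products hold the pathway back. SOCS1 and SOCS3 block JAK activity, SOCS3 while bound to gp130, and SOCS2 is best known as a brake on growth hormone signalling. A SOCS box at the end of each SOCS protein recruits elongins and the cullin CUL5, which mark bound proteins for destruction. SOCS2 messenger RNA has been described as an m6A target in other cells.

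Library totals lay between 31450648 and 37041330 counts. METTL3 had 44.35 and 43.61 CPM (counts scaled to a common library size, with TMM adjustment) in the shNC libraries. In the sh812 libraries it had 7.66 and 8.75 CPM, which is 18.7% of the control level. The arm read as the knockdown is thus the one with less METTL3 messenger RNA. The listed genes of a prostate cancer line (6 genes: KRT8, KRT18, KRT19, EPCAM, CD44 and VIM) summed to 1783 to 1967 CPM per library. The largest part came from VIM, which is neither a keratin nor a surface gene. EPCAM and KRT18 were higher in sh812 (log2 fold change 0.45 and 0.30, adjusted p = 0.000128 and 0.00793 in edgeR). KRT8 and KRT19 (0.13 and 0.10) and, the other way, VIM and CD44 (-0.18 and -0.14) did not pass the test. The luminal genes KLK2 and KLK3 were at 0 in every library. Leukocyte markers (6 genes) summed to 1.05 to 1.503 CPM, fibroblast markers (5 genes) to 47.2 to 54.3 CPM and endothelial markers (4 genes) to 41.6 to 50.4 CPM. Most of the fibroblast sum came from COL1A1 (37.6 and 39.4 CPM in shNC, 29.3 and 34.5 CPM in sh812). COL1A2 went the other way (9.49 and 9.55 CPM in shNC, 13.6 and 13.4 CPM in sh812, adjusted p = 0.0116 in edgeR). Among the endothelial genes, VWF and CDH5 had at most 6 counts in a library, while the sum came from PECAM1 and KDR, which went opposite ways. PECAM1 had 23.8 and 23.6 CPM in shNC and 32.9 and 38.5 CPM in sh812, and KDR had 18.9 and 17.9 CPM in shNC and 11.1 and 11.7 CPM in sh812. Across 12254 genes, the fitted difference between the arms went with transcript length (Spearman's rho -0.33, a description, since genes share the same 4 libraries). The difference between the shNC replicates went with length to a like extent (rho -0.33), and that between the sh812 replicates did not (rho 0.043). IL6ST and LIFR have the longest transcripts of the 10 genes (9057 and 10089 bases), so the values of the 10 genes are also given with the length trend removed.

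The m6A writer prefers a short context of which GGACU is the best known form, written GGACT in the DNA alphabet. For the main transcript of each gene in GENCODE 29 (GRCh38), the copy of GGACT nearest to the stop codon was read from the reference, since m6A is known to be dense around stop codons. Windows of 25 bases are shown 5′ to 3′ with the motif in capitals, for the 3 genes that fell and for JAK1, JAK2 and LIFR, which did not pass the test. In IL6ST the A of the motif lies 4 bases past the stop codon, in the 3′ UTR (chr5:55941066-55941090, minus strand). In SOCS2 it lies in the coding part, 57 bases before the end of the stop codon (chr12:93575110-93575134, plus strand). In SOCS3 it is also coding, 73 bases before that end (chr17:78358479-78358503, minus strand). In JAK2, which did not pass, it lies about as near, in the 3′ UTR, 71 bases past the stop codon (chr9:5126850-5126874, plus strand). In JAK1 it lies in the 3′ UTR, 182 bases past the stop codon (chr1:64834368-64834392, minus strand), and in LIFR it is coding, 232 bases before its end (chr5:38481815-38481839, minus strand).
IL6ST: cctcagtgaaGGACTagtagttcct
SOCS2: tgccatctggGGACTgcctttacca
SOCS3: acggccacctGGACTcctatgagaa
JAK2: acattgctgtGGACTattattacat
JAK1: atatgtgtaaGGACTtcctctttaa
LIFR: ctgcagaagaGGACTtagataaaac

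A GGACT within 100 bases of the stop codon was found in 4 of the 10 genes, namely IL6ST, SOCS2, SOCS3 and JAK2. The share over 13250 tested genes with a coding transcript was 22.6%, and the limit of 100 bases was chosen after the positions were seen. Over the whole transcript, the density lay below the median of all genes in IL6ST and above it in SOCS2 and SOCS3. Among the genes that did not pass the test, the density was also above the median in OSMR (1.62 per kilobase), JAK1 (1.59 per kilobase) and SOCS1. It was below the median in IL6R, LIFR, JAK2 and STAT3. OSMR and JAK1 thus had a higher density than SOCS2. IL6ST held 3 copies, or 0.331 per kilobase, SOCS2 held 4 copies (1.39 per kilobase) and SOCS3 held 5 (1.83 per kilobase), against a median of 0.92 per kilobase over 16627 tested genes. These are matches of letters. Methylation was not measured here.

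In the sh812 libraries, 3 of the 10 genes were lower at an adjusted p under 0.05 in edgeR, the gp130 gene IL6ST and the inhibitor genes SOCS2 and SOCS3, and none was higher. Over all genes tested the same rule called 5.42% lower and 5.43% higher. At an unadjusted p under 0.05 in edgeR, 6 of the 10 genes were lower, where 12.9% of all genes tested were. None of the 10 was higher, where 1995 of the 16802 genes tested were. The 6 include IL6R, OSMR and JAK1, whose log2 fold changes came to -0.11, -0.075 and -0.091 with the length trend removed. DESeq2 and limma-voom also called 3 lower and 0 higher. Both sh812 libraries lay below both shNC libraries in 8 of the 10 genes (27.4% of all genes tested) and above them in 1, LIFR (26.2% of all genes tested). SOCS1 was the gene whose groups overlapped. The fitted change was below 0 in 9 of the 10 genes, against 51% of all genes tested, and its median was -0.26 against -0.0056. In bulk RNA, a lower level per cell and a smaller share of cells that express a gene cannot be told apart.

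**Figure D1:**
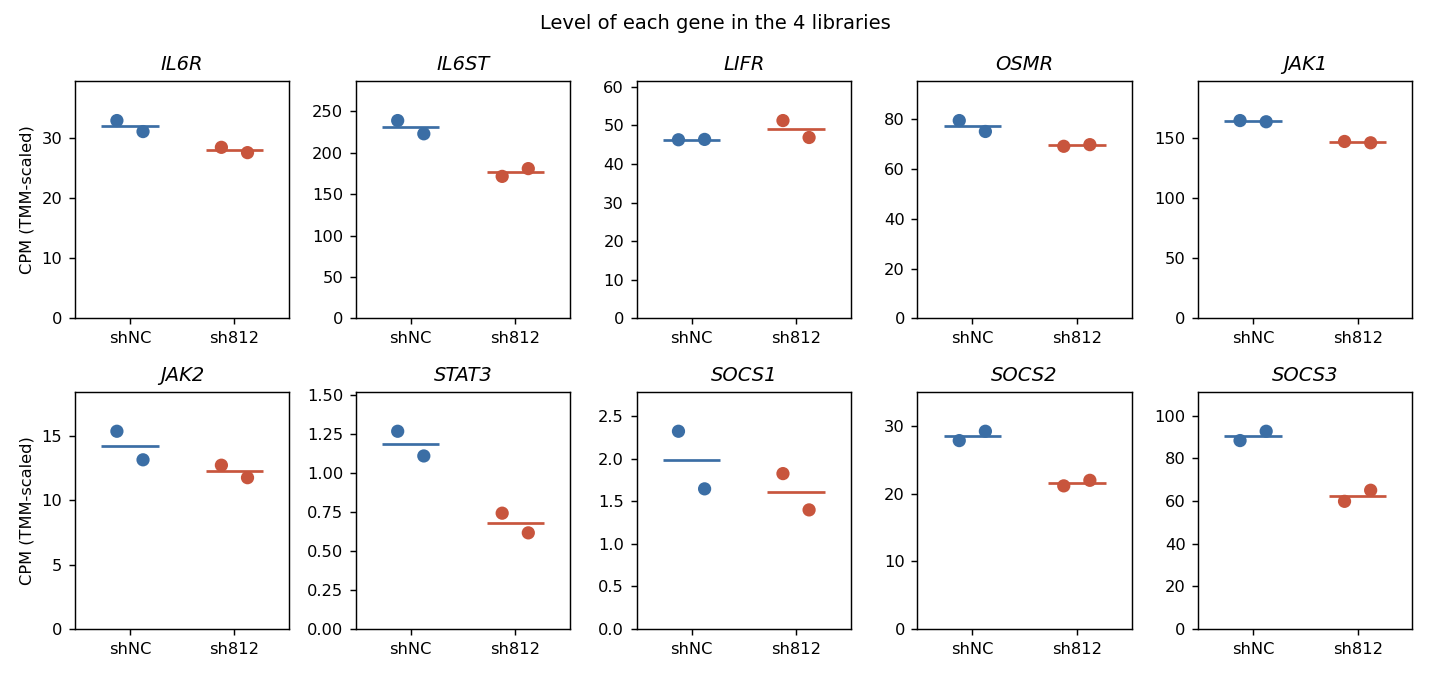
Level of each gene in CPM (y axis, from 0) in the 2 shNC libraries (blue) and the 2 sh812 libraries (red), with a bar at each group's mean. The red points lie below the blue points for IL6ST (171.5 and 180.9 against 239.0 and 223.0 CPM), SOCS2 and SOCS3, and the groups overlap for SOCS1.

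Among the receptors, IL6ST fell and the 3 chains that pair with it did not pass the test. IL6ST (ENSG00000134352, chromosome 5, 55935095 to 55994993) had 239.0 and 223.0 CPM in the shNC libraries and 171.5 and 180.9 CPM in the sh812 libraries. The groups stand apart, with the higher sh812 library well under the lower shNC one. The log2 fold change was -0.39 (SE 0.061, adjusted p = 0.000136 in edgeR), so that gp130 messenger RNA was at 76.3% of its control level. With the length trend removed, the log2 fold change was -0.29 and the adjusted p in edgeR 0.000774. A processed pseudogene on the opposite strand, AC016596.1, overlaps IL6ST and had 51 to 83 counts, against 6019 to 9064 for IL6ST.

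IL6R, the chain that binds IL6 itself, had 32.85 and 31.02 CPM in shNC and 28.40 and 27.52 CPM in sh812. Both sh812 libraries were lower, but the log2 fold change of -0.19 (95% interval -0.38 to -0.0051) had an adjusted p of 0.188 in edgeR, and it was -0.11 with the length trend removed. OSMR, the oncostatin M chain, had 79.52 and 75.13 CPM in shNC and 69.17 and 69.83 CPM in sh812. Its log2 fold change of -0.15 (95% interval -0.30 to -0.011, adjusted p = 0.163 in edgeR) was also made smaller by removal of the length trend, to -0.075. OSMR shares part of its span with RICTOR on the opposite strand (1227 to 1680 counts).

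LIFR, the LIF chain, went the other way. It had 46.30 and 46.39 CPM in shNC and 51.28 and 46.89 CPM in sh812. The lower sh812 library is almost level with the controls, and the log2 fold change of 0.083 (95% interval -0.081 to 0.25) did not pass the test (adjusted p = 0.575 in edgeR). With the length trend removed it was 0.18. The interval of LIFR lies wholly above that of IL6ST (-0.52 to -0.26), although the difference between the genes was not tested.

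Neither kinase passed the test. JAK1, the kinase on which gp130 signalling depends most, had 164.5 and 163.5 CPM in shNC and 147.1 and 146.0 CPM in sh812. The replicates of each group lie close together and the groups do not overlap. The log2 fold change was -0.16 (95% interval -0.28 to -0.039, adjusted p = 0.0813 in edgeR). JAK1 passed with scaling by library size alone (adjusted p = 0.0245, log2 fold change -0.21) and without shNC replicate 2 (adjusted p = 0.0329), both in edgeR. With the length trend removed its log2 fold change was -0.091. JAK1 overlaps RAVER2 on the opposite strand (1180 to 1375 counts). JAK2, which also serves the growth hormone and interferon receptors, had 15.37 and 13.15 CPM in shNC and 12.73 and 11.76 CPM in sh812. Its lower shNC library sits just above the higher sh812 library, and the log2 fold change was -0.22 (95% interval -0.48 to 0.037, adjusted p = 0.286 in edgeR). It was -0.10 without shNC replicate 1 and -0.15 with the length trend removed.

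STAT3 was barely present in either arm. The shNC libraries held 48 and 35 STAT3 counts (1.26 and 1.11 CPM), and the sh812 libraries 26 and 22 (0.741 and 0.615 CPM). Of the tested protein-coding genes, 9.08% had a mean level as low as STAT3 or lower. Both sh812 libraries were under both shNC libraries, but at these counts the log2 fold change of -0.81 had a 95% interval from -1.73 to 0.12 and an adjusted p of 0.276 in edgeR. It was -0.74 with the length trend removed. The interval holds 0 and also a fall larger than that of any of the 3 called genes.

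PC3 is known in the field as a line without STAT3, through loss of a stretch of chromosome 17q. The counts of the genes next to STAT3 are shown for that reason. In GENCODE 29, 41 protein-coding genes lie within 500 kb of the STAT3 start site. STAT3 is the last of 13 neighbouring genes, from ZNF385C to STAT3 (chromosome 17, 42025576 to 42388568), that had fewer than 50 counts in every library, a limit chosen after the values were seen. These 13 include its close relatives STAT5A (0 to 8 counts) and STAT5B (2 to 14 counts). They also include KAT2A (4 to 6 counts) and RAB5C (8 to 11 counts), a histone acetyltransferase gene and an endosome gene that most cell types express. Of the 13 genes, 4 were at 0 in all 4 libraries. Past STAT3 on the other side, CAVIN1, a coat protein gene of caveolae, had 96 to 146 counts and the proton pump gene ATP6V0A1 had 16 to 24 counts. COASY, further on, had 2783 to 3777 counts, and NKIRAS2, before the run, had 884 to 1106 counts. The median level per transcript length was 0.0167 CPM per kilobase over the 13 genes, 5.78 over the 28 others in the window and 4.92 over all genes tested. The 13 genes were picked by their low counts in these libraries, so the gap between these medians follows from that choice. Low counts were seen in both arms. DNA copy number was not measured.

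**Figure D2:**
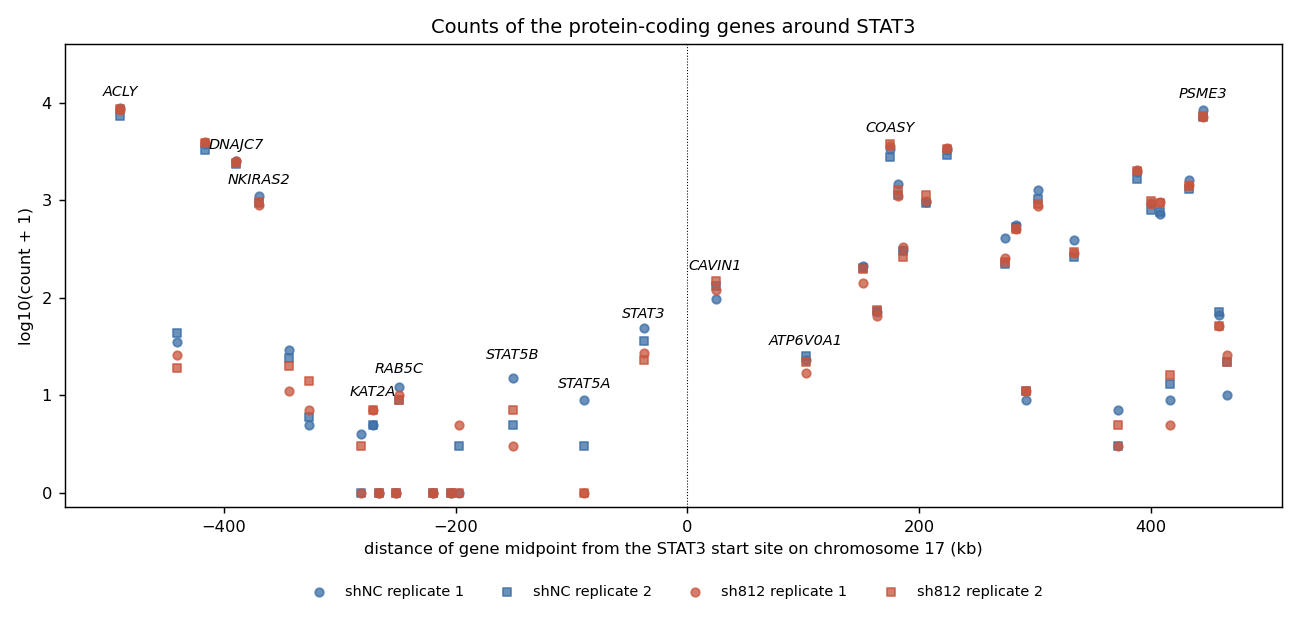
Counts, as log10(count + 1) on the y axis, of the 41 protein-coding genes within 500 kb of the STAT3 start site, by distance of the gene's midpoint in kb (x axis), for the 2 shNC (blue) and 2 sh812 (red) libraries. The genes from ZNF385C to STAT3 lie low in all 4 libraries, while NKIRAS2 on one side and COASY on the other have at least 884 counts in each library.

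Of the 3 genes called lower, 2 are inhibitor genes, and SOCS3 had the largest fall of the 3. SOCS3 (ENSG00000184557, chromosome 17, 78356778 to 78360077) had 88.29 and 92.65 CPM in shNC and 59.80 and 65.00 CPM in sh812. The gap between the groups is several times the gap between replicates. The log2 fold change was -0.54 (SE 0.071, adjusted p = 1.64e-05 in edgeR), which left 69.0% of the control level. It was -0.54 with the length trend removed as well.

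SOCS2 (ENSG00000120833, chromosome 12, 93569814 to 93583487) had 27.87 and 29.25 CPM in shNC and 21.17 and 21.99 CPM in sh812. Again the groups stand apart. The log2 fold change was -0.40 (SE 0.097, adjusted p = 0.0081 in edgeR), at 75.6% of the control level, and it was -0.40 with the length trend removed. This call rests on both sh812 libraries: the adjusted p in edgeR rose to 0.122 when sh812 replicate 1 was left out and to 0.0527 when replicate 2 was, with log2 fold changes of -0.38 and -0.43. An antisense gene, SOCS2-AS1, overlaps it on the opposite strand and had 72 to 109 counts, against 743 to 1057 for SOCS2.

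SOCS1, the third inhibitor, was expressed at a low level and did not pass. It had 2.32 and 1.64 CPM in shNC and 1.82 and 1.40 CPM in sh812, with the higher sh812 library above the lower shNC library. The log2 fold change was -0.31 (95% interval -0.97 to 0.36, adjusted p = 0.62 in edgeR). It was -0.36 with the length trend removed, and -0.031 when shNC replicate 1 was left out and -0.52 when replicate 2 was. SOCS1 (50 to 88 counts) overlaps RMI2 on the opposite strand (471 to 668 counts). How the counting treated strand is not given in the sources used here, so reads of the pair cannot be separated.

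Set per kilobase of transcript, the levels of the 10 genes in the control cells ran from 0.235 to 33.1 CPM. SOCS3 (33.1 CPM per kilobase) and JAK1 (32.5) stood at the top, and their shNC libraries overlapped (32.3 and 33.9 against 32.6 and 32.4). IL6ST followed at 25.5, OSMR (libraries at 14.4 and 13.6) and SOCS2 at 9.91, then IL6R at 5.40 and LIFR at 4.59. The JAK2 libraries were at 2.91 and 2.49, SOCS1 at 1.11 and STAT3 at 0.235 CPM per kilobase. In these cells gp130 messenger RNA thus outnumbered that of each chain that pairs with it, per length. In the sh812 libraries JAK1 (libraries at 29.2 and 28.9) lay above SOCS3 (22.8) with no overlap, since SOCS3 libraries were at 21.9 and 23.8 CPM per kilobase. IL6R (4.73) and LIFR (4.87) came level there, with overlapping libraries. This scale uses 1 transcript per gene and does not know which isoform the cells made.

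**Figure D3:**
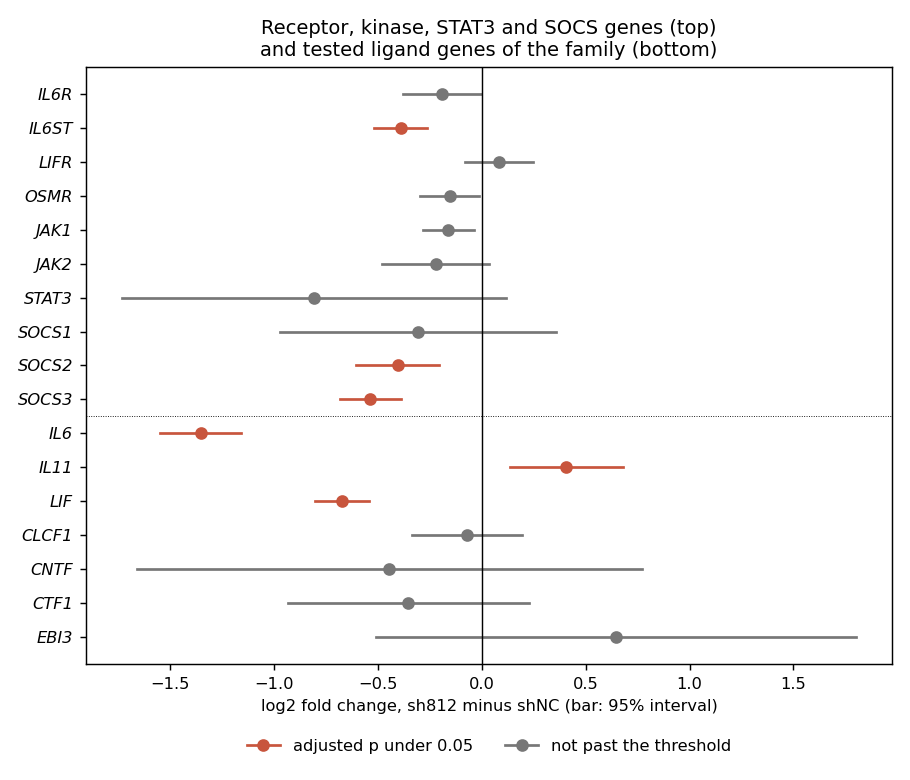
Fitted log2 fold change of sh812 against shNC (x axis) with its 95% interval for the 10 genes (above the dotted line) and for the 7 tested ligand genes of the family (below it), red where the adjusted p in edgeR was under 0.05. IL6ST, SOCS2 and SOCS3 lie left of 0 with narrow intervals, as do IL6 and LIF, IL11 lies to the right, and the intervals of STAT3 and SOCS1 are wide.

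Of 10 ligand genes of the family, 7 were tested, with 2 called lower and 1 higher (median log2 fold change -0.35). Over all genes tested, 5.42% were called lower and 5.43% higher. IL6 had 50.78 and 50.81 CPM in shNC and 21.79 and 17.97 CPM in sh812 (log2 fold change -1.35, adjusted p = 4.27e-10 in edgeR). LIF, the ligand of LIFR, had 214.6 and 196.0 CPM in shNC and 125.7 and 131.9 CPM in sh812. LIF was thus at 62.7% of the control level (log2 fold change -0.67, SE 0.063, adjusted p = 8.13e-08 in edgeR), and it passed in each alternative. IL11, which signals through IL11RA and gp130, was higher. It had 10.33 and 13.60 CPM in shNC and 15.10 and 16.51 CPM in sh812, a log2 fold change of 0.41 (adjusted p = 0.0485 in edgeR). That call was lost in 6 of 15 alternatives, among them DESeq2 (adjusted p = 0.153), the fit with the length trend removed (adjusted p = 0.0509 in edgeR) and the fit without shNC replicate 1 (log2 fold change 0.22, adjusted p = 0.38). The 3 ligand genes not tested, OSM, IL27 and IL31, had at most 2 counts in a library.

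For the rest of the pathway, calls are given by list. Over all genes tested, 5.43% were called higher and 5.42% lower, so lists this small may well hold 0 calls. At an unadjusted p under 0.05 in edgeR, 1995 of the 16802 genes tested were higher and 2166 (12.9%) were lower. Of the 10 other receptor genes, 4 were tested and 0 called by edgeR in either direction, with 0 at an unadjusted p under 0.05. Of the 8 other JAK and STAT genes, 6 were tested and 0 called by edgeR, with 1 higher and 1 lower at an unadjusted p under 0.05. Of the 15 other SOCS genes and negative regulators, 14 were tested, with 0 called higher and 1 lower. This was PIAS3, which encodes an inhibitor of STAT3 (53.84 and 51.73 CPM in shNC, 41.79 and 45.30 CPM in sh812). Its log2 fold change was -0.28 (adjusted p = 0.0242 in edgeR), and the call was lost with DESeq2 (adjusted p = 0.0545) and without either sh812 library (adjusted p = 0.362 and 0.0811 in edgeR).

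The list for receptor shedding, trafficking and degradation had 10 genes, all tested, with 0 called higher and 1 lower (all genes tested: 5.43% and 5.42%). The lower one was CUL5, the cullin of the SOCS box ligase, with 59.37 and 61.82 CPM in shNC and 44.21 and 48.31 CPM in sh812. CUL5 had a log2 fold change of -0.39 (adjusted p = 0.00178 in edgeR), or 76.3% of the control level, and its adjusted p in edgeR was 0.0917 without sh812 replicate 1. CUL5 had a log2 fold change of -0.30 with the length trend removed (adjusted p = 0.0081 in edgeR). Its partners ELOB and ELOC had log2 fold changes of 0.17 and 0.098 and did not pass.

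Genes known elsewhere as STAT3 targets moved both ways. Of 28, 21 were tested, with 2 called higher and 3 lower, and a median log2 fold change of -0.11. Over all genes tested, 5.43% were called higher and 5.42% lower. STAT3 itself had at most 48 counts in a library, and whether it acts on these genes here was not tested. SAA1, an acute-phase protein gene, had 33.64 and 41.58 CPM in shNC and 21.91 and 25.96 CPM in sh812 (log2 fold change -0.65, adjusted p = 0.000222 in edgeR). SAA2, its near-identical neighbour, was also called lower, and the division of reads between the pair is uncertain. ICAM1, an adhesion molecule gene, had 158.6 and 171.5 CPM in shNC and 117.4 and 132.8 CPM in sh812 (log2 fold change -0.40, adjusted p = 0.000318 in edgeR). The genes that rose were MYC, a growth regulator (log2 fold change 0.40, adjusted p = 7.7e-05 in edgeR), and TIMP1, a protease inhibitor gene (log2 fold change 0.35, adjusted p = 0.000743 in edgeR). With the length trend removed, the log2 fold change was 0.32 for MYC, 0.25 for TIMP1, -0.76 for SAA1 and -0.38 for ICAM1, and each still passed. TIMP1 had an adjusted p of 0.109 in edgeR without sh812 replicate 2. Of the acute-phase genes of liver on the list, CRP, HP and LBP were at 0 in every library, while the fibrinogen genes FGB (6 to 27 counts) and FGG (2 to 12 counts) had few. Over the 6 pathway lists together, 62 of 81 genes were tested, with 3 called higher and 7 lower, to be read against the same shares. The median log2 fold change was -0.084 against -0.0056 over all genes tested.

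Promoter sequences are described because several genes of the route are known STAT targets and 3 of the 10 fell. In RefSeq windows from 250 bases before to 50 after a start site (GRCh38.p14), 9 of the 10 genes had 17 windows, and SOCS2 had no entry. The STAT motif TTCNNNGAA, searched on both strands, was found in 2 of the 17 windows, both of LIFR, and in 7.66% of all 35116 windows. The looser form TTCNNNNAA, which contains the first and was also searched on both strands, was found in 8 of the 17 windows, which belong to 7 genes, and in 34.8% of all windows. The 7 genes are IL6ST and SOCS3, and also IL6R, LIFR, OSMR, JAK2 and STAT3, which did not pass the test. In IL6ST the looser form stands once, at position -217 from the start site. The 250 bases before that start (chr5:55994964-55995213, minus strand) are printed 5′ to 3′ with the match in capitals. A match describes these letters and shows no binding.
IL6ST promoter: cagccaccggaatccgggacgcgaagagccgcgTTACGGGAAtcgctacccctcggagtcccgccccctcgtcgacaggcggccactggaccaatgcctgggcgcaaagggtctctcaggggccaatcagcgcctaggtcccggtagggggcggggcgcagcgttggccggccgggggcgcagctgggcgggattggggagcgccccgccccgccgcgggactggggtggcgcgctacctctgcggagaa

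The direction of the 10 genes did not turn under any scaling, filter, tool or left-out library that was run. IL6ST kept an adjusted p under 0.05 in each alternative that gave a test, with log2 fold changes from -0.44 to -0.29, and so did SOCS3, from -0.60 to -0.48. Scaling by library size alone gave 561 higher and 1328 lower calls over the whole table, which put 29.7% of calls on the higher side, where TMM scaling put 50.1%. The median of all genes moved to -0.050 under that scaling, and the changes of the 10 genes moved with it. With the length trend removed, the changes of the receptor and kinase genes other than LIFR came closer to 0, while those of SOCS2 and SOCS3 kept their size.

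**Figure D4:**
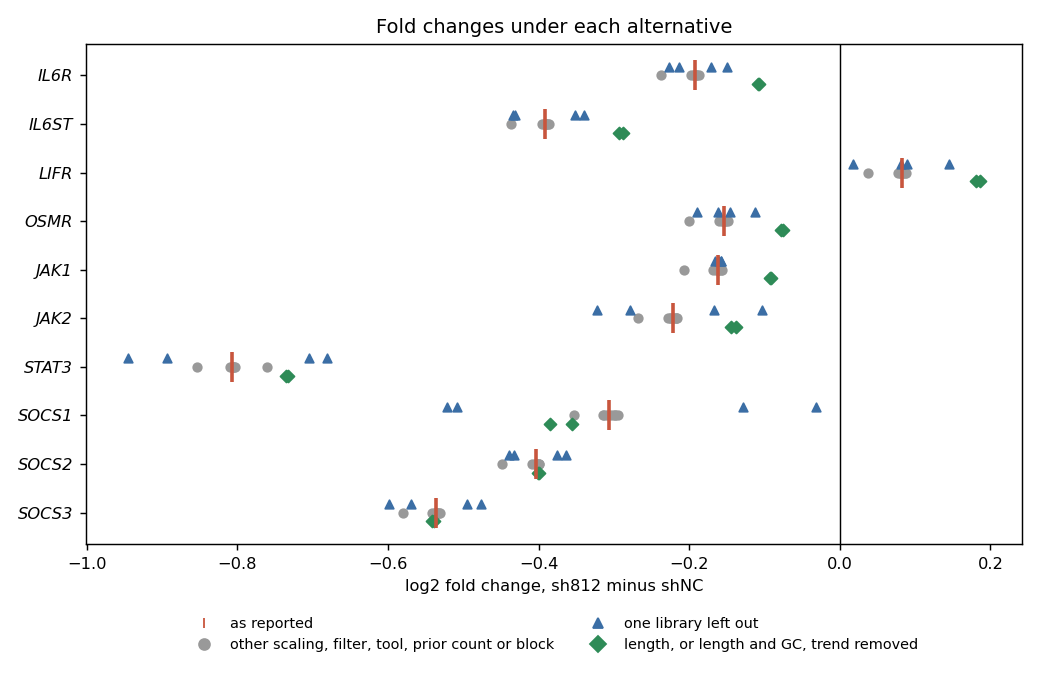
Fitted log2 fold change of sh812 against shNC (x axis) for each of the 10 genes as reported (red bar), with another scaling, filter, tool, prior count or the replicate block (grey circles), with a library left out (blue triangles), and with the length, or length and GC, trend removed (green diamonds). SOCS2 and SOCS3 keep their size with the trend removed, IL6ST moves from -0.39 to -0.29, and SOCS1 reaches -0.031 without shNC replicate 1.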

How the data were processed

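Raw counts per gene for 4 libraries were deposited by the authors in 1 table, with Ensembl identifiers and gene names. Poly(A) RNA was selected and the second cDNA strand was marked with U, per the labels' protocols. The submitters' processing notes name fastp, STAR 2.7.1a, featureCounts and DESeq2 with the build hg38. The roles of these tools, the annotation and the strand setting are not given in the sources used here. Library totals were 31450648 to 37041330 counts.

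Differential expression across all genes was tested here with edgeR 4.0.16 in R 4.3.3 (filterByExpr, TMM, glmQLFit and glmQLFTest, all 4 libraries, no covariate). P-values were adjusted by Benjamini-Hochberg over 16802 genes, with calls made below 0.05. Fold changes used a prior count of 0.125. Standard errors were derived from the F statistic, and 95% intervals from them. Methods were tested on simulated data. Transcript lengths, motifs and positions came from GENCODE 29, with the principal transcript of each gene, and promoters from RefSeq (GRCh38.p14). The alternatives were other scalings and filters, DESeq2 1.42.0, limma-voom (limma 3.58.1), the replicate block, a prior count of 2, each library left out, and per-library lowess trends (span 0.3) on length, or on length and GC, removed. The last of these was chosen after seeing the data.

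The 10 genes, the pathway and marker lists and the alternatives were chosen with earlier results of these data known. Named genes are METTL3, the 10 genes, IL6, up to 4 called genes of each pathway list by p-value, and the genes around STAT3. KDR, PECAM1, COL1A1, COL1A2, ELOB, ELOC, JAK3 and STAT6 were named after their values were seen. So were the listed genes of a prostate cancer line, the ligand genes with few counts, and the other marker and liver genes at or near 0. Some results are not reported here.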

Additional observations from a re-analysis of the deposited data

How the results depend on the processing

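In all 14 alternatives that gave new calls, from 2 to 4 of the 10 genes were called lower and 0 higher, against 3 and 0. Leaving out a library gave 2 to 4 lower. These fits leave a group with 1 library, which is assumed to vary like the other group, and their counts over the whole table ran from 261 to 1703 higher and from 326 to 1549 lower, against 912 and 910. METTL3 had log2 fold changes from -2.52 to -2.33 in them. Called genes of the pathway lists ran from 1 to 12 higher and from 4 to 14 lower, against 3 and 7. With library size alone, 561 genes were called higher over the table and 11 pathway genes lower. DESeq2 called 585 genes lower and 718 higher. Removal of the length trend gave 5 pathway genes called higher, and removal of both trends, length and GC, gave 6. For none of these shifts was the cause tested.

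Replicate numbers gave no sign of pairing: deviations of same-numbered libraries had a correlation of 0.0164 across genes, and the labels name no shared day. A fit with the replicate block called 1003 genes higher and 998 lower, METTL3 had a log2 fold change of -2.42, and 3 of the 10 genes were again called lower. STAT3 was not tested with a mean CPM of at least 1, and DESeq2 gave it and SOCS1 no adjusted p. STAT3 and SOCS1 had at most 48 and 88 counts in a library and the widest intervals of the 10 genes.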

Other observations

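Other genes of the family that missed the threshold lay apart between the arms and are given as values. JAK3, a kinase of lymphoid cytokine receptors, had 6.14 and 6.89 CPM in shNC and 4.59 and 4.67 CPM in sh812 (log2 fold change -0.49, adjusted p = 0.0704 in edgeR). STAT6, which serves interleukin-4 receptors, had 68.50 and 69.41 CPM in shNC and 76.29 and 81.20 CPM in sh812 (log2 fold change 0.19, adjusted p = 0.0767 in edgeR).

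Of the 22 listed neighbours of STAT3 on chromosome 17, 14 were tested, with 1 called higher and 1 lower (all genes tested: 5.43% and 5.42%). COASY, an enzyme gene of coenzyme A synthesis, had 87.45 and 88.00 CPM in shNC and 101.8 and 105.5 CPM in sh812 (log2 fold change 0.24, adjusted p = 0.0178 in edgeR). CNTNAP1, a gene of axon contacts, had 33.27 and 32.60 CPM in shNC and 24.84 and 25.57 CPM in sh812 (log2 fold change -0.39, adjusted p = 0.00729 in edgeR). Both calls were lost in edgeR without either sh812 library, with adjusted p-values of 0.136 and 0.265 for COASY and 0.114 and 0.0576 for CNTNAP1, and that of COASY also with library size alone (0.0531).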
